A study of Mus musculus with 18 samples.

Results

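The genes described here are 38 genes of microglia and macrophages, chosen as a list of symbols, and all 38 are among the 22558 genes of the deposited tables. They were followed in retina and in RPE/choroid (the retinal pigment epithelium with the vascular layer beneath it) of mice aged 30 days. The mice were homozygous Abca4 knockouts (Abca4-/-), homozygous carriers of the knock-in allele Abca4 L541P;A1038V, or wild type, all on a mixed 129SV and C57BL/6 background. Each genotype and tissue had 3 RNA-seq libraries, 18 in all. Abca4 encodes a flippase of photoreceptor discs whose loss lets retinoid by-products build up, and in people its mutations cause Stargardt disease. No label ties a library to an animal of its own, so the p-values speak only of the spread between these samples, which may be technical. Since each library is a whole tissue, fewer cells of a type and less RNA per cell cannot be told apart.

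Microglia are the resident macrophages of the retina, and the choroid holds its own macrophages along its vessels. Both depend on the receptor Csf1r, and both carry leukocyte surface proteins such as CD45 (Ptprc) and the integrin CD11b (Itgam). Resting microglia are recognised by P2ry12, Tmem119 and Siglech, vessel-associated macrophages by the mannose receptor Mrc1 and the haemoglobin scavenger receptor Cd163, and activated cells by genes such as the lipid receptor Trem2 and the galectin Lgals3. The list was read in 5 roles: 13 pan-myeloid genes, 9 genes of healthy microglia, 5 genes of macrophages or monocytes, 6 genes of Fc receptors, Trem2 and their adaptors, and 5 genes induced on activation.

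Upstream sequence was available for 26 of the 38 genes (RefSeq, GRCm38.p6, the 250 bases before the gene start). The letters GAGGAAG, a purine-rich core of the kind bound by the myeloid factor PU.1, or their reverse complement CTTCCTC, were found in 7 of these 26 windows (26.9%), against 12% of the windows of all 27025 genes in the same table. The genes were Itgam, Trem2, Mrc1, Fcgr1, Fcgr3, Laptm5 and Hpgds. A match is a description of letters and not a binding site. Windows are printed below for 5 genes on which the results turn, 5′ to 3′ along the gene's strand, with matches in capitals. Lyz2 (chr10:117282273-117282522, minus strand) and Lyz1 (chr10:117292869-117293118, minus strand) are shown because the lysozyme pair is alike, with 79.4% identity between the aligned windows. Trem2 (chr17:48346151-48346400, plus strand), Laptm5 (chr4:130913066-130913315, plus strand) and Lgals3 (chr14:47373610-47373859, plus strand) are shown because every knockout retina lay above every wild-type retina for them.
Lyz2: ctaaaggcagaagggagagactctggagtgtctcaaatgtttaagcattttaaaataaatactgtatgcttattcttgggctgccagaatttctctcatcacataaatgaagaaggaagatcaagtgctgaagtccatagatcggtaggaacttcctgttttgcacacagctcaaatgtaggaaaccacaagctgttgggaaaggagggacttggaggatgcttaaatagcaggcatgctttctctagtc
Lyz1: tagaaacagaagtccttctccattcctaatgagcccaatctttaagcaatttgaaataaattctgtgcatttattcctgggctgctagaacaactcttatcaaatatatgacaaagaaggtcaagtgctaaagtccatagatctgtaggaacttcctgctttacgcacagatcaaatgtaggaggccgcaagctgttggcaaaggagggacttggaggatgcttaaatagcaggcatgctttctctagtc
Trem2: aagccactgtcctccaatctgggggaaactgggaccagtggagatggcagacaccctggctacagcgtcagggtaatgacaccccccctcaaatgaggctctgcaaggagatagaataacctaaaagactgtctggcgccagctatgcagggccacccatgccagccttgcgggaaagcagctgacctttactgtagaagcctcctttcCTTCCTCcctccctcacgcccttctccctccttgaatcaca
Laptm5: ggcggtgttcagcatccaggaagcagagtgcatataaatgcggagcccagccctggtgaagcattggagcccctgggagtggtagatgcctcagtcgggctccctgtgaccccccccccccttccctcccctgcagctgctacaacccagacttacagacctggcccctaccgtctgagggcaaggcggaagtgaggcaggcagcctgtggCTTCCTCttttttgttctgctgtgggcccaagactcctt
Lgals3: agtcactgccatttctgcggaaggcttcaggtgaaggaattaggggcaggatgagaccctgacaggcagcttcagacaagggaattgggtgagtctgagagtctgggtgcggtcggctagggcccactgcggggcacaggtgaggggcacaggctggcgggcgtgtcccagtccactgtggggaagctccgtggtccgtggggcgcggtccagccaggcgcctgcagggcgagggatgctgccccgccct
Trem2 and Laptm5 hold 1 match each, and the windows of Lyz2, Lyz1 and Lgals3 hold none. The likeness of the lysozymes extends to their transcripts, where 15.4% of the 50-base stretches of Lyz2 and 16.1% of those of Lyz1 occur in the other. Fragments from such stretches could be assigned to either gene, so the values of the pair are not fully separate.

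The libraries held 11553291 to 23579152 assigned fragments in retina and 14621635 to 30048059 in RPE/choroid. Levels within a tissue are in FPKM, the fragments of a gene relative to its length and the size of its library. Abca4 stood at 73.9, 80.3 and 81.8 FPKM in knockout retina, at 182, 197 and 233 FPKM in knock-in retina and at 228, 251 and 282 FPKM in wild-type retina. In RPE/choroid it was 25.6, 26.2 and 26.5 FPKM in knockout, 36.6, 36.7 and 42.5 FPKM in knock-in and 35.4, 38.4 and 59.5 FPKM in wild-type libraries. Marker levels fitted the tissue labels: all 9 rod genes were lower and all 12 RPE genes higher in wild-type RPE/choroid than in wild-type retina (edgeR, adjusted p under 0.05). The mean log2(FPKM + 0.1) of the RPE genes was 2.30 to 2.62 in knockout retinas, 2.18 to 2.29 in knock-in retinas and 1.60 to 1.76 in wild-type retinas, with no overlap between wild type and either line. Lens genes varied widely among retinas, at 3.80 to 7.99 in knockout, 3.49 to 7.15 in knock-in and 0.85 to 4.42 in wild type on the same scale. One wild-type RPE/choroid library, number 2 of the table, stood apart in rod genes (7.02, the highest of its tissue). By Xist and Ddx3y, 1 knockout, 0 knock-in and 2 wild-type retinas were male, and all RPE/choroid libraries were male but 1 of knock-in.

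All but a few of the genes were higher in RPE/choroid than in retina. Among 36 members that could be tested in wild-type tissue (edgeR quasi-likelihood test on fragment counts of all 18 libraries), 34 were higher in RPE/choroid at a Benjamini-Hochberg adjusted p under 0.05, and none was lower. Of all 16222 genes tested, 44% were higher and 41.9% lower. The median log2 difference of the 36 was 4.02, against 0.04 over all genes. Ccl3 and Ccl4, chemokines of activated macrophages, had too few fragments to be tested. Lyz1, Cd163, Cd52, Cd48, Msr1, Clec7a and Ccl2 had too few fragments for a test within retina. They entered this test through RPE/choroid, where they are high, so their direction is no independent result. The counts and medians between tissues include them.

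**Figure D1:**
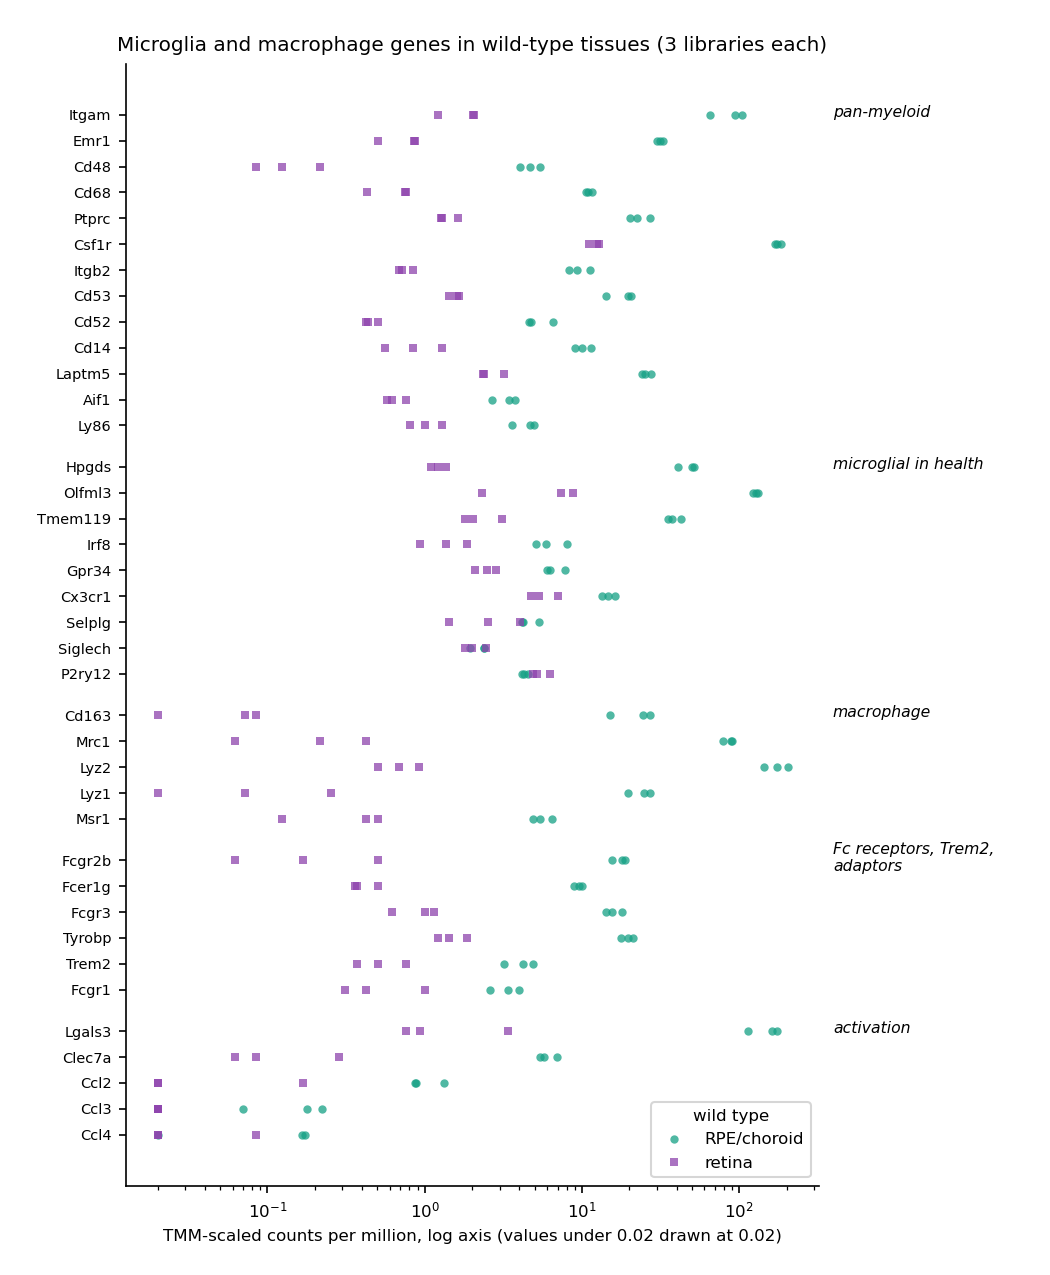
CPM (fragment counts relative to scaled library size) of all 38 genes in 3 wild-type RPE/choroid libraries (circles) and 3 wild-type retinas (squares) on a log axis, ordered within each role by the difference between tissues; values under 0.02 are drawn at 0.02. Of the macrophage genes, 4 of 5 lie farther apart than any gene of the other roles, with Msr1 at log2 4.01 the exception, and P2ry12 and Siglech lie close together.

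The macrophage genes differed most, with a median log2 of 7.94 over the 5, of which Lyz1, Cd163 and Msr1 entered only through RPE/choroid. Levels set across tissues are in CPM, the fragment count of a gene relative to the size of its library, with sizes scaled over all 18 libraries. Cd163 had 27.0, 24.4 and 15.1 CPM in wild-type RPE/choroid, against 0, 0.0717 and 0.0841 CPM in wild-type retina. Mrc1 had 88.8, 90.0 and 78.8 CPM in wild-type RPE/choroid, against 0.0623, 0.215 and 0.420 CPM in wild-type retina. Lyz2, the lysozyme of macrophages and granulocytes, had 203, 173 and 144 CPM in wild-type RPE/choroid, against 0.685, 0.502 and 0.925 CPM in wild-type retina. In each case the tissues were far apart, but the retinal side rested on few fragments: 0, 1 and 1 for Cd163 and 1, 3 and 5 for Mrc1. The log2 differences were 8.66 for Cd163 (SE 0.72, adjusted p = 2.26e-08), 8.58 for Mrc1 (SE 0.56, adjusted p = 3.42e-09) and 7.94 for Lyz2 (SE 0.36, adjusted p = 4.53e-11). For Cd163 the ratio of summed fragments over summed library sizes was 446 (exact 95% interval 123 to 3690, covering counting error only), from 1445 fragments in wild-type RPE/choroid and 2 in wild-type retina. The other macrophage genes were Lyz1 (log2 7.85) and the scavenger receptor Msr1 (log2 4.01).

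Genes of healthy microglia showed the smallest differences, with a median log2 of 1.43 over 9 genes, of which 7 passed. P2ry12, the ADP receptor that guides microglial processes, had 4.54, 4.18 and 4.25 CPM in wild-type RPE/choroid, against 5.17, 4.87 and 6.22 CPM in wild-type retina. Each RPE/choroid library lay below each retina, but the difference of log2 -0.34 did not pass (SE 0.17, adjusted p = 0.0764). Siglech, a sialic acid-binding lectin of microglia, had 2.38, 2.37 and 1.95 CPM in wild-type RPE/choroid, against 1.99, 1.79 and 2.44 CPM in wild-type retina, and the tissues overlapped (log2 0.10, SE 0.22, adjusted p = 0.663). Selplg, a selectin ligand of leukocytes, had 5.37, 4.22 and 4.14 CPM in wild-type RPE/choroid, against 1.43, 2.51 and 4.04 CPM in wild-type retina. Its log2 of 0.80 passed (adjusted p = 0.0107), though not without wild-type retina 0 (log2 0.48, adjusted p = 0.0754). Within this role, Cx3cr1, the fractalkine receptor, differed by log2 1.35, while Tmem119 differed by 4.05, the secreted protein Olfml3 by 4.39 and the prostaglandin D synthase Hpgds by 5.24. Thus Tmem119, used here as a marker of resting microglia, differed between the tissues by far more than P2ry12. P2ry12 (Med12l), Gpr34 (Cask) and Cx3cr1 (Wdr48 and Ttc21a) overlap genes on the opposite strand. Of other roles, so do Csf1r (Hmgxb3), Cd52 (Crybg2) and Ccl2 (Gm17268). Cx3cr1, Itgam and Irf8 also overlap genes on the same strand. No source used here says whether counting used the strand.

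The remaining roles lay between. All 13 pan-myeloid genes were higher in RPE/choroid, from log2 2.09 for Ly86, a partner of a Toll-like receptor relative, to 5.62 for Itgam. Emr1, which encodes F4/80, differed by log2 5.33 (SE 0.19), and Csf1r by 3.85 (SE 0.11). All 6 genes of Fc receptors, Trem2 and adaptors were higher as well, from log2 2.51 for the high-affinity IgG receptor Fcgr1 to 6.14 for the inhibitory receptor Fcgr2b. Of the genes induced on activation, Lgals3 differed by log2 6.44, the beta-glucan receptor Clec7a by 5.32 and the monocyte attractant Ccl2 by 4.22. Ccl2 rested on 64 fragments in wild-type RPE/choroid and 2 in wild-type retina, a ratio of 19.8 (exact 95% interval 5.25 to 167, counting error only).

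Per length, the levels of the list were low in retina. Over the 9 retinas, 15 of the 38 members had a mean of at least 1 FPKM and none reached 10, the highest being Olfml3 at 4.24 FPKM. Over the 9 RPE/choroid libraries, 35 reached 1 FPKM and 16 reached 10, led by Lyz2 at 157, Lgals3 at 104 and Olfml3 at 66.1 FPKM. Csf1r followed at 44.8 and Tyrobp, the adaptor of Trem2, at 42.2 FPKM. The FPKM of the tissues were scaled separately, so these are levels within each table. In mm9, the build of the tables, Lyz2 spans chr10:116714596-116719328, Lgals3 chr14:47993534-48005842 and Trem2 chr17:48485725-48491598. Emr1 spans chr17:57498108-57622952, Cd53 chr3:106561778-106593067 and Ptprc chr1:139959437-140071882, each given from the first to the last base of the gene with its introns. Ccl3 had 0 fragments in every retina but 1 knockout library with 2.

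In knockout retina no member passed the test against wild type. Trem2, Lyz2, Laptm5 and Lgals3 lay higher in every knockout retina than in every wild-type retina, and Ptprc and Siglech lay lower. Of the 29 members with enough fragments to be tested, 0 had an adjusted p under 0.05 by edgeR, where 0.98% of all 14699 genes did. DESeq2 and limma on log2(FPKM + 1) called 0 as well. At an unadjusted p under 0.05 the counts were 7 by edgeR (background 12.5%), 5 by DESeq2 and 5 by limma. Of the 7, 6 were higher in knockout (background 6.36%) and 1 was lower (background 6.15%). The separated groups, 4 higher and 2 lower, stand beside 6.66% and 5.17% of all genes.

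Trem2, the lipid-sensing receptor of microglia, had 1.67, 1.35 and 0.934 FPKM in knockout retinas 0, 1 and 2, against 0.475, 0.634 and 0.753 FPKM in wild-type retinas. Its log2 difference was 1.10 (SE 0.38, adjusted p = 0.230), from 12 to 28 fragments per knockout library and 6 to 9 per wild-type library. Lgals3, a galectin made by activated phagocytes among other cells, had 4.32, 6.53 and 7.09 FPKM in knockout retinas, against 0.856, 2.82 and 0.547 FPKM in wild-type retinas. The lowest knockout value stood above the highest wild-type value, the log2 difference was 2.10 (SE 0.64, adjusted p = 0.255), and the wild-type values themselves spread widely. Lyz2 had 1.42, 2.63 and 1.63 FPKM in knockout retinas, against 0.698, 0.526 and 1.01 FPKM in wild-type retinas (log2 1.39, SE 0.49, adjusted p = 0.259). Again the groups were separate, on 19 to 57 fragments in knockout and 7 to 11 in wild-type libraries. Laptm5, a lysosomal membrane protein of leukocytes, had 2.27, 2.02 and 2.19 FPKM in knockout retinas, against 1.55, 1.41 and 1.51 FPKM in wild-type retinas (log2 0.51, SE 0.20, adjusted p = 0.315). Ptprc had 0.138, 0.150 and 0.174 FPKM in knockout retinas, against 0.239, 0.207 and 0.258 FPKM in wild-type retinas (log2 -0.63, SE 0.26, adjusted p = 0.345).

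**Figure D2:**
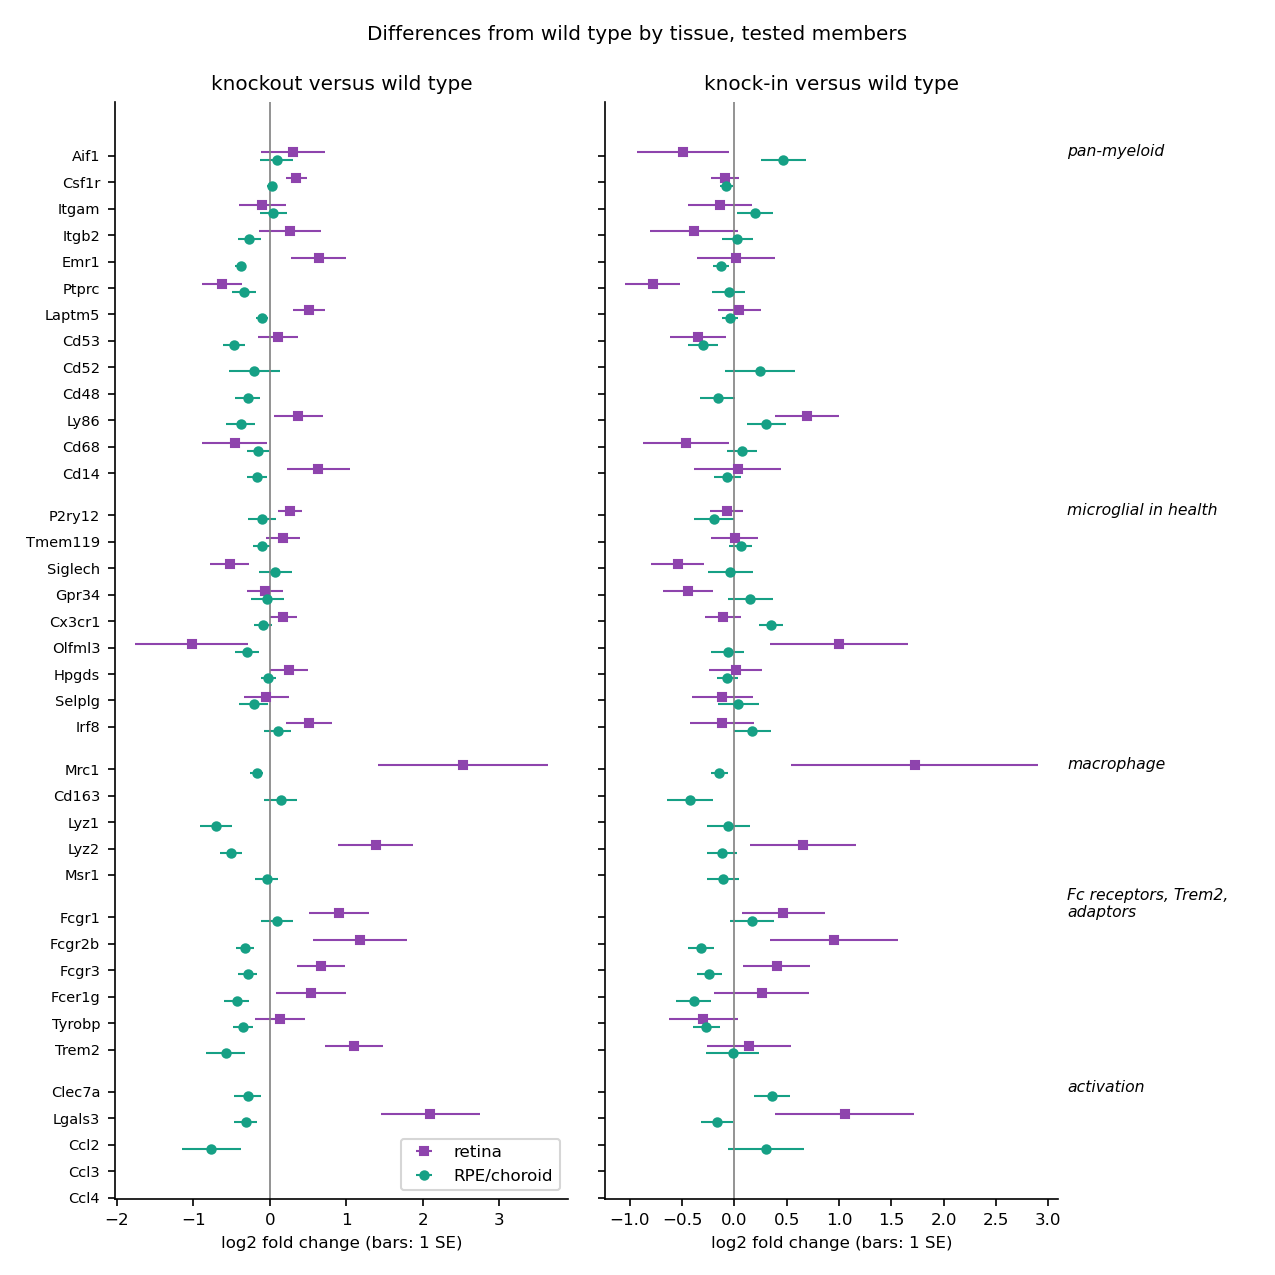
Log2 fold change of each tested member in knockout (left) and knock-in (right) against wild type, in retina (squares) and RPE/choroid (circles), with bars of 1 SE; the 2 panels have different x ranges. In knockout, 22 of 29 retinal values lie above 0 and 29 of 36 RPE/choroid values lie below it, and no value passed the test.

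By role, the log2 differences in knockout retina were above 0 for 8 of 11 tested pan-myeloid genes, 5 of 9 genes of healthy microglia, both tested macrophage genes, all 6 genes of Fc receptors, Trem2 and adaptors, and Lgals3. Together 22 of 29 were above 0, where 49% of all genes were, with a median of 0.30 (0.19 without knockout retina 0) against 0.00 for all genes. The list was drawn up with opposite shifts of retina and RPE/choroid in view. Counts of direction and of separated groups in knockout, here and below, therefore describe these genes and support nothing about a shift. The largest was Mrc1 at log2 2.52 (SE 1.11, adjusted p = 0.411), with 6, 51 and 16 fragments in knockout retinas and 1, 3 and 5 in wild-type retinas. The lowest was Olfml3 at log2 -1.02 (SE 0.74), with 1.11, 1.99 and 2.33 FPKM in knockout retinas against 1.42, 4.68 and 4.86 FPKM in wild-type retinas. Knockout retina 0 held the highest value of all 9 retinas for 18 of the 38 members, against 5 each for the other knockout retinas. The 9 untested members were Lyz1, Cd163, Cd52, Cd48, Msr1, Clec7a, Ccl2, Ccl3 and Ccl4. Cd163 had 33 fragments in knockout retina 1 and at most 3 in any other retina.

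RPE genes moved with the knockout retinas, as given above, and with their level as a term the median of the members was -0.07 and Trem2 stood at log2 -0.25. All wild-type retinas lay below all knockout retinas in that level, so it cannot be told apart from genotype in this fit.

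**Figure D3:**
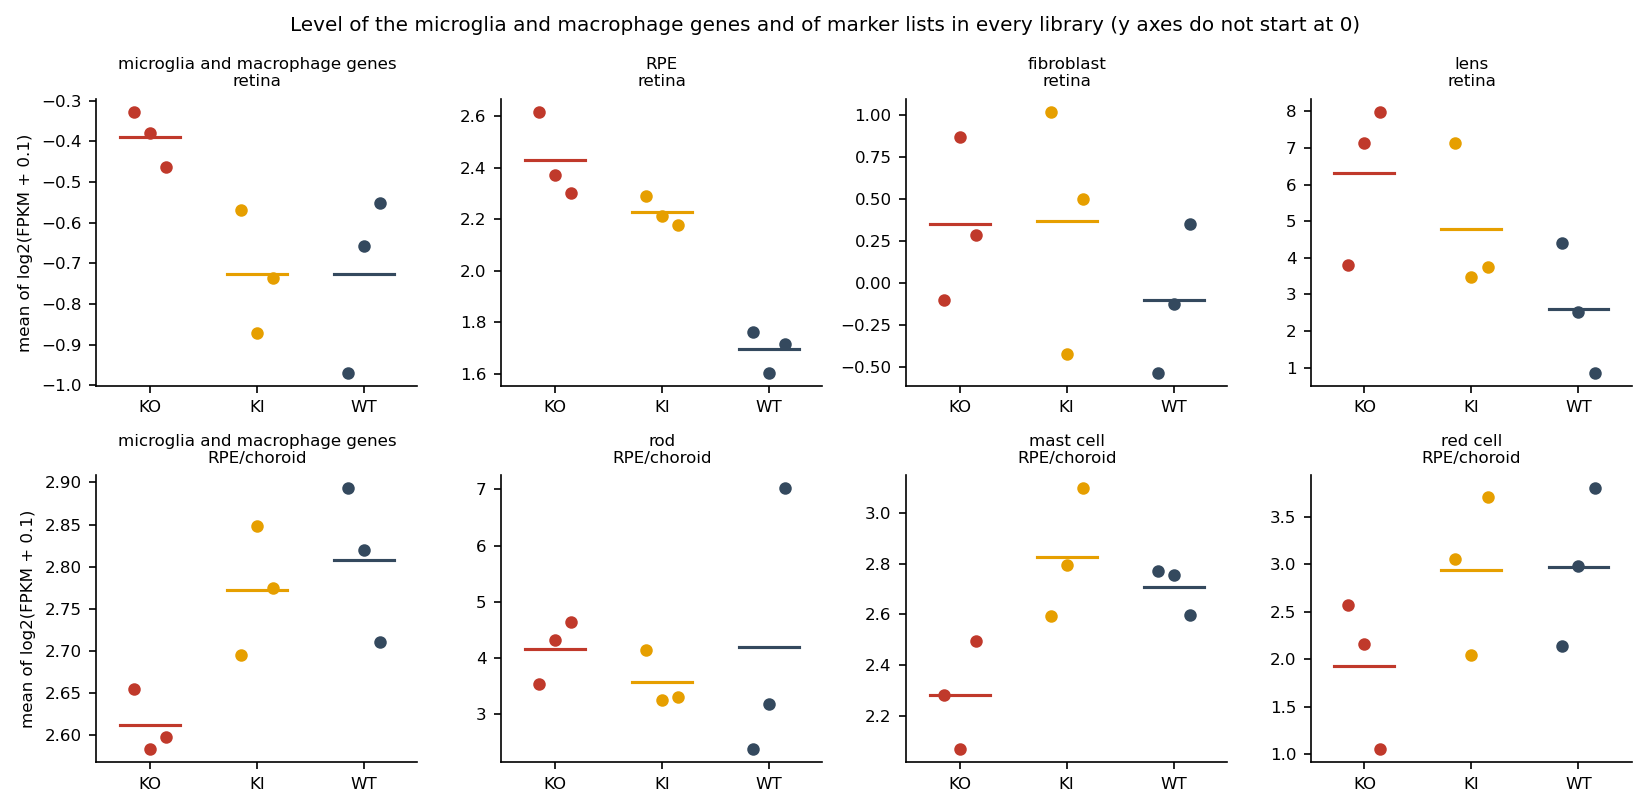
Mean log2(FPKM + 0.1) of the 38 microglia and macrophage genes and of marker lists in every library, in retina (top) and RPE/choroid (bottom), for knockout (KO), knock-in (KI) and wild type (WT); bars are means of 3 libraries and the y axes differ and do not start at 0. The microglia and macrophage genes lay at -0.46 to -0.33 in knockout retinas and at -0.97 to -0.55 in wild-type retinas, while RPE genes lay apart in the same direction.

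In knock-in retina the members were balanced around wild type, with 15 of 29 above 0, 14 below and a median log2 of 0.00 (-0.11 without knock-in retina 0; 50.2% of all genes were above 0). None passed edgeR (background 0.265% of genes), DESeq2 or limma on log2(FPKM + 1). At an unadjusted p under 0.05 the counts were 3 by edgeR (background 8.5%), 0 by DESeq2 and 1 by limma. Ptprc had 0.132, 0.106 and 0.184 FPKM in knock-in retinas, against 0.239, 0.207 and 0.258 FPKM in wild-type retinas (log2 -0.78, SE 0.26, adjusted p = 0.357). Siglech had 0.613, 0.469 and 0.665 FPKM in knock-in retinas, against 0.767, 0.709 and 1.03 FPKM in wild-type retinas (log2 -0.54, SE 0.25, adjusted p = 0.581). Both were lower in every knock-in retina, as they were in every knockout retina, and the 2 comparisons share the wild-type retinas. Ly86 had 1.67, 2.00 and 1.80 FPKM in knock-in retinas, against 0.855, 1.37 and 1.13 FPKM in wild-type retinas (log2 0.69, SE 0.31, adjusted p = 0.561), which made it the 1 member higher without overlap (background 5.16%, and 3.61% lower). With the RPE level as a term Ly86 stood at log2 -0.27.

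Between the lines, knock-in retinas tended to the lower side, with 27 of 29 members below 0 (49.4% of all genes were above 0) and a median log2 of -0.38. The knockout retinas are those compared with wild type above, so this lean is no independent support for a shift. No member passed edgeR (background 1.26%), DESeq2 or limma on log2(FPKM + 1), and the counts at an unadjusted p under 0.05 were 6, 2 and 6 (edgeR background 11.7%). Csf1r, the growth factor receptor on which microglia depend, had 3.19, 2.87 and 3.16 FPKM in knock-in retinas, against 5.28, 4.22 and 3.13 FPKM in knockout retinas (log2 -0.44, SE 0.13, adjusted p = 0.146). Its groups overlapped through knockout retina 2. Olfml3 went the other way, with 13.1, 4.80 and 3.86 FPKM in knock-in retinas against 1.11, 1.99 and 2.33 FPKM in knockout retinas (log2 2.02, SE 0.70, adjusted p = 0.327). It was the only member higher without overlap (background 5.69%), and Fcgr1 and Laptm5 were lower (background 5.08%).

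In knockout RPE/choroid the list leaned to the lower side, and again no member passed edgeR. Of 36 tested members 29 were below 0, with a median log2 of -0.21 (-0.13 without wild-type library 0) against -0.01 for all genes, and 46.5% of all genes were above 0. The count past the adjusted threshold was 0 (background 0.472%), against 3 with DESeq2 (Emr1, Lyz1 and Lyz2) and 0 with limma on log2(FPKM + 1). The background is that of the edgeR fit, and no share of all genes is given for DESeq2 or limma. At an unadjusted p under 0.05 edgeR gave 9 (background 15.5%), all lower in knockout (background 8.26%), DESeq2 9 and limma 7. Every knockout library lay below every wild-type library for 10 members (background 4.87%) and above for 0 (background 5.56%). The 10 were Emr1, Lyz1, Lyz2, Fcgr2b, Fcgr3, Fcer1g, Ptprc, Cd48, Olfml3 and Ccl2. As the list was drawn up with opposite shifts of the tissues in view, these counts describe it and support nothing about a shift.

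Emr1, the F4/80 antigen of mature macrophages, had 6.79, 7.20 and 8.54 FPKM in knockout RPE/choroid, against 9.45, 9.10 and 10.5 FPKM in wild-type RPE/choroid. In scaled counts it was tighter, at 24.0, 24.3 and 24.2 CPM in knockout against 32.6, 31.5 and 29.8 CPM in wild-type libraries (log2 -0.38, SE 0.07, adjusted p = 0.0662). Lyz2 had 123, 132 and 130 FPKM in knockout RPE/choroid, against 197, 180 and 152 FPKM in wild-type RPE/choroid (log2 -0.50, SE 0.15, adjusted p = 0.163). Its knockout libraries lay close together and below all others, with knock-in libraries at 147, 199 and 154 FPKM. Lyz1, its near copy, had 11.5, 11.5 and 14.0 FPKM in knockout RPE/choroid, against 21.3, 19.7 and 17.6 FPKM in wild-type RPE/choroid (log2 -0.71, SE 0.21, adjusted p = 0.173). Cd53, a tetraspanin of leukocytes, had 14.4, 12.5 and 12.7 CPM in knockout RPE/choroid, against 19.6, 20.4 and 14.2 CPM in wild-type RPE/choroid (log2 -0.47, SE 0.14, adjusted p = 0.171). Its groups overlapped through wild-type library 2 by a small margin, and in FPKM they overlapped more, at 4.61, 4.98 and 8.82 in knockout and 7.0, 8.40 and 9.26 in wild type.

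Without that library, the one with the most rod transcripts, 4 members passed edgeR: Cd53 (log2 -0.62, adjusted p = 0.0166), Emr1 (log2 -0.42, adjusted p = 0.0254), Lyz2 (log2 -0.63, adjusted p = 0.0365) and Lgals3. With the rod level as a term 3 passed: Cd53 (adjusted p = 0.0211), Emr1 (adjusted p = 0.0227) and Lyz2 (adjusted p = 0.0318). No share of all genes is given for these fits, so the counts stand without a background and are not read as a result about the members.

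Of the 6 genes of Fc receptors, Trem2 and adaptors, 5 were below 0 and none passed (46.5% of all genes were above 0). Fcer1g, the signalling chain of activating Fc receptors, had 19.8, 16.6 and 13.2 FPKM in knockout RPE/choroid, against 23.1, 21.1 and 20.3 FPKM in wild-type RPE/choroid (log2 -0.43, adjusted p = 0.252). Fcgr2b stood at log2 -0.32 and Fcgr3, an activating receptor, at -0.29, both with separate groups (adjusted p = 0.239 and 0.279). Of the 50-base stretches of their transcripts, 9.58% of those of Fcgr3 and 2.92% of those of Fcgr2b occur in the other. The values of these genes are therefore not fully separate. Among pan-myeloid genes 10 of 13 were below 0, among genes of healthy microglia 7 of 9, among macrophage genes 4 of 5, and all 3 tested genes of activation were. Csf1r, with 50.8, 47.0 and 41.6 FPKM in knockout and 45.3, 45.8 and 42.6 FPKM in wild-type RPE/choroid, overlapped between genotypes. Itgam, with 18.4, 16.8 and 19.9 FPKM in knockout and 20.8, 18.4 and 13.6 FPKM in wild-type RPE/choroid, overlapped too. Mast cell markers, 7 genes of another resident leukocyte of the choroid, moved with the group: their mean log2(FPKM + 0.1) was 2.07 to 2.49 in knockout and 2.60 to 2.77 in wild-type RPE/choroid. The tested genes of other blood cell lists had a median log2 of -0.92 (6 red cell genes), -0.47 (4 neutrophil), -0.62 (2 T and NK cell) and -0.51 (1 B cell). The 4 neutrophil genes ranged from -0.94 to 0.97. On the scale above, each of these lists overlapped between genotypes. T and NK cell genes lay at -2.01 to -1.74 in knockout and -2.21 to -1.66 in wild type, and neutrophil genes at -0.31 to 0.09 and -0.30 to 0.37. The median of 7 fibroblast genes was -0.22. The median of 5 dendritic cell genes was 0.07. The part of these cells in the members' values was not tested.

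**Figure D4:**
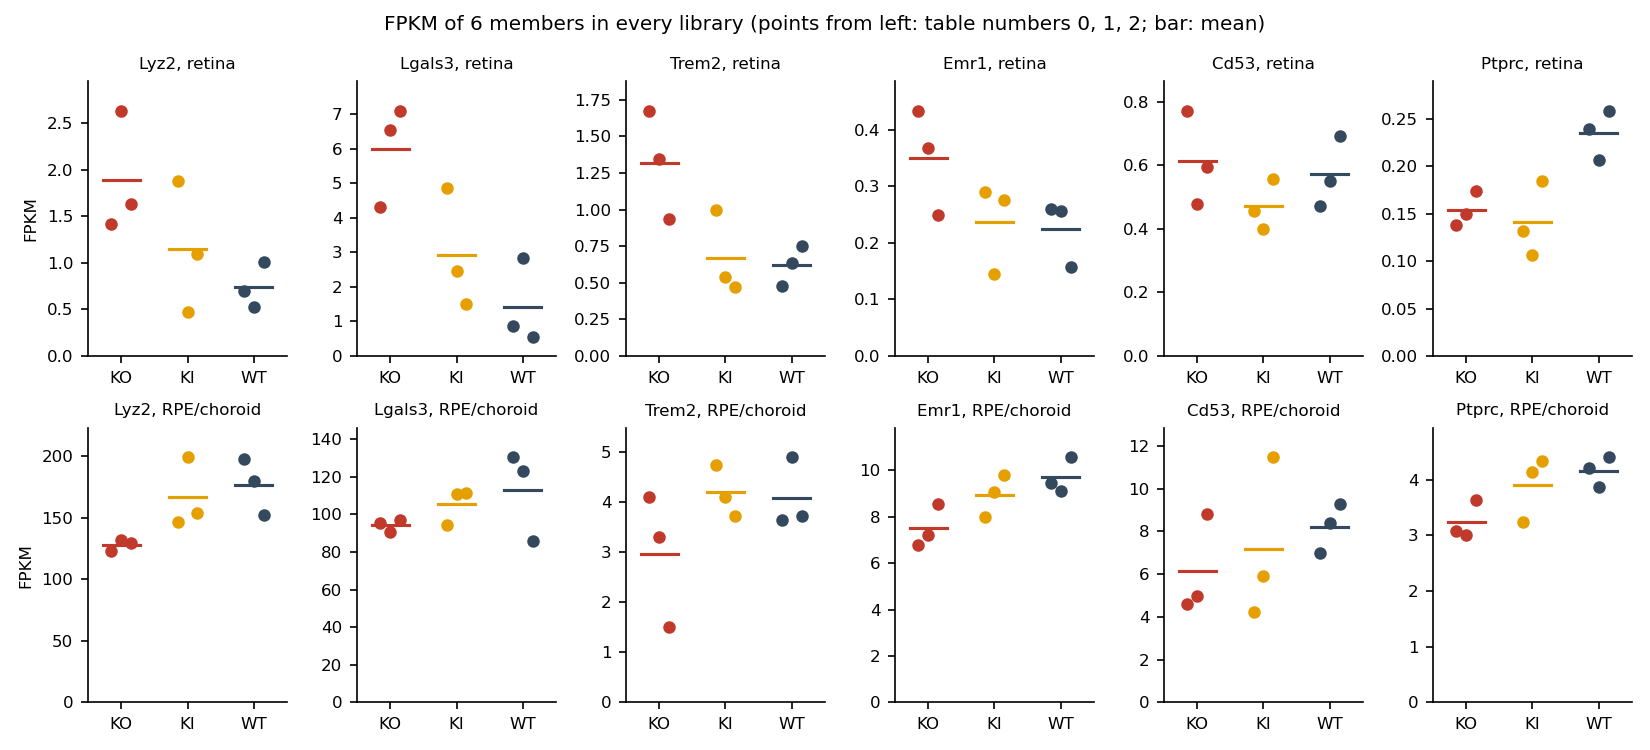
FPKM of Lyz2, Lgals3, Trem2, Emr1, Cd53 and Ptprc in every library of retina (top) and RPE/choroid (bottom) for knockout (KO), knock-in (KI) and wild type (WT), with points from left in the order of table numbers and bars at the mean of 3. Lyz2 is higher in all knockout than in all wild-type retinas and lower in all knockout than in all wild-type RPE/choroid libraries, and Ptprc is lower in knockout in both tissues.

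In knock-in RPE/choroid no member passed edgeR (background 0.0647%), DESeq2 or limma on log2(FPKM + 1), and 3, 3 and 2 had an unadjusted p under 0.05 (edgeR background 5.53%). Of the 36 tested, 14 were above 0 (background 48.6%) and 22 below, with a median log2 of -0.06 (-0.12 when knock-in library 1 was left out, 0.02 when wild-type library 0 was). Cx3cr1 had 4.45, 5.04 and 4.68 FPKM in knock-in RPE/choroid, against 3.74, 3.34 and 4.18 FPKM in wild-type RPE/choroid (log2 0.35, SE 0.12, adjusted p = 0.800). Fcgr2b had 8.67, 11.5 and 10.2 FPKM in knock-in RPE/choroid, against 12.2, 13.2 and 12.2 FPKM in wild-type RPE/choroid (log2 -0.32, SE 0.12, adjusted p = 0.846). Fcer1g had 18.3, 18.9 and 13.2 FPKM in knock-in RPE/choroid, against 23.1, 21.1 and 20.3 FPKM in wild-type RPE/choroid (log2 -0.39, SE 0.16, adjusted p = 0.875). These groups were separate, as were those of Aif1 and Ly86 upward (3 members with Cx3cr1, background 2.94%) and Tyrobp downward (3 with Fcgr2b and Fcer1g, background 1.9%).

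Set against knockout, knock-in RPE/choroid lay on the higher side for 30 of 36 members (background 51.3%), with a median log2 of 0.16 (0.08 without knock-in library 1). The knockout libraries are those compared with wild type above, so this lean is no independent support for a shift. None passed edgeR (background 0.453%), DESeq2 or limma on log2(FPKM + 1), and the counts at an unadjusted p under 0.05 were 8, 8 and 7 (edgeR background 12.2%). Knock-in libraries lay above all knockout libraries for 7 members (background 4.7%) and below for 0 (background 4.68%): Cx3cr1, Lyz1, Lyz2, Laptm5, Ly86, Clec7a and Ccl2. Ccl2 had 1.75, 2.04 and 1.95 FPKM in knock-in RPE/choroid, against 0.913, 1.23 and 0.535 FPKM in knockout RPE/choroid (log2 1.06, SE 0.38, adjusted p = 0.308). Ly86 had 6.16, 6.20 and 5.97 FPKM in knock-in RPE/choroid, against 3.69, 3.21 and 4.79 FPKM in knockout RPE/choroid (log2 0.69, SE 0.19, adjusted p = 0.194).

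Taking the tissues side by side, 18 of the 29 members tested in both (62.1%) were above 0 in knockout retina and below 0 in knockout RPE/choroid, where 24.9% of 13939 genes were. The list was drawn up with this opposite shift in view, so the share and all values of the difference between tissues that follow describe these genes and support nothing about the shift. A further 4 members were above 0 in both tissues, 5 were below 0 in both, Ptprc among them, and 2 had the reverse pattern. The knockout effect in RPE/choroid minus that in retina was fitted over all 18 libraries, and 0 of 36 members passed edgeR (background 0.136%). DESeq2 called 2, Lgals3 and Lyz2, with no share of all genes given for that fit. At an unadjusted p under 0.05 edgeR gave 12 (background 12.3%), all with the lower effect in RPE/choroid (background 6.94%), and DESeq2 gave 13. Of the 36, 6 were above 0 (background 47%) and 30 below. The 4 members with the smallest p were Lgals3 (log2 -2.39, SE 0.59), Trem2 (log2 -1.68, SE 0.46), Emr1 (log2 -1.02, SE 0.30) and Lyz2 (log2 -1.90, SE 0.54), none past the adjusted threshold. In RPE/choroid, Trem2 had 4.09, 3.29 and 1.5 FPKM in knockout libraries against 3.64, 4.89 and 3.73 FPKM in wild-type libraries, and Lgals3 had 95.4, 90.5 and 96.9 FPKM in knockout against 130, 123 and 85.7 FPKM in wild-type libraries. Both overlapped there, unlike in retina, and Lgals3 was the 1 member that passed without wild-type RPE/choroid library 2. By role the median difference was -1.90 for 5 macrophage genes and -1.74 for 3 genes of activation. It was -0.96 for 6 genes of Fc receptors, Trem2 and adaptors, -0.53 for 13 pan-myeloid genes and -0.25 for 9 genes of healthy microglia. Lyz1, Cd163, Msr1, Clec7a and Ccl2 were too low to test within retina, so the first 2 medians rest largely on few retinal fragments. Summed over 3 retinas, Ccl2 had 4 fragments in knockout and 2 in wild type, and Lyz1 had 12 and 4. RPE genes differed in the same direction, with Rpe65 at log2 -1.61 (adjusted p = 0.00565) and Rgr at -1.67 (adjusted p = 0.00976), and their part in the members' values was not tested. For the knock-in effect 0 members passed by edgeR (background 0.0555%) or DESeq2, 3 and 2 had an unadjusted p under 0.05 (edgeR background 5.98%), and 19 of 36 were above 0 (background 42.8%) with a median of 0.03.

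Further lists linked to these cells were counted, though other cells make some of their genes, and the ligands are listed as made by other cells. In wild-type retinas the disease-associated list summed to 959 to 1022 FPKM, against 28.1 to 38.1 FPKM for the 38 members. Of 16 tested further genes of homeostatic microglia edgeR called 0 in knockout retina (background 0.98%), with 6 at an unadjusted p under 0.05 (background 12.5%) and a median log2 of 0.40. That list includes the crystallin Crybb1, and its highest log2 was 4.11. Lens genes had a median log2 of 4.53 in the same comparison, and their part in the list was not tested. Of 13 tested genes of disease-associated microglia 1 was called on the same background, Gpnmb, a glycoprotein of phagocytes and pigment cells, which was higher in knockout. It had 2.30, 2.90 and 2.41 FPKM in knockout retinas, against 1.43, 1.05 and 1.81 FPKM in wild-type retinas (log2 0.83, SE 0.18, adjusted p = 0.0411). In wild-type RPE/choroid, where pigment cells abound, Gpnmb stood at 468 ± 42.9 FPKM (SD, n = 3). Pigment genes moved with it: the mean log2(FPKM + 0.1) of 7 was 1.07 to 1.51 in knockout retinas and 0.07 to 0.86 in wild-type retinas, and Oca2, a melanosome transporter, passed (log2 1.54, SE 0.27, adjusted p = 0.0133). Their part in the value of Gpnmb was not tested. No gene of the other lists (transcription factors, perivascular and choroidal macrophage genes, ligands, chemokines, signalling below Trem2) was called in knockout retina.

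Knock-in retina against knockout retina gave 3 calls in these lists, all lower in knock-in (background 1.26% of all genes called). They were Ctss and Mertk of the 16 tested further homeostatic genes, and Gpnmb of the 13 tested disease-associated genes. Ctss, the lysosomal cathepsin S of microglia, had 9.47, 9.84 and 11.3 FPKM in knock-in retinas, against 22.7, 15.6 and 16.8 FPKM in knockout retinas (log2 -0.86, SE 0.15, adjusted p = 0.0118). Mertk, a phagocytosis receptor shared by macrophages and RPE, had 2.48, 3.09 and 2.75 FPKM in knock-in retinas, against 3.70, 4.77 and 5.09 FPKM in knockout retinas (log2 -0.69, SE 0.13, adjusted p = 0.0192). Gpnmb differed by log2 -0.77 (SE 0.17, adjusted p = 0.0397). In the same comparison 6 tested pigment genes had a median log2 of -0.42 (-0.60 to -0.15). The 12 RPE genes had a median of -0.30 (-0.64 to 0.66). Their part in the values of Mertk and Gpnmb was not tested. In knock-in retina 1 of 8 tested ligands and restraining signals passed against wild type (background 0.265%). Cd200, a neuronal protein that restrains microglia, had 13.1, 12.1 and 17.4 FPKM in knock-in retinas, against 18.7, 18.6 and 22.1 FPKM in wild-type retinas (log2 -0.52, SE 0.09, adjusted p = 0.0287).

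In RPE/choroid no gene of these lists was called in any pair of genotypes. At an unadjusted p under 0.05 (background 8.26% lower in knockout), further homeostatic genes had 6 members lower and 1 higher, with a median log2 of -0.28 over 20 tested genes, and perivascular and choroidal macrophage genes 5 lower, 0 higher and a median of -0.31 over 17. Between wild-type tissues, 18 of 20 homeostatic genes, 16 of 17 perivascular and choroidal genes, 14 of 15 disease-associated genes, all 8 transcription factors, all 9 chemokine genes and all 8 signalling genes were higher in RPE/choroid (background 44%). In the same order, 16, 10, 13, 8, 3 and 6 genes of these lists could be tested within retina. The others entered through RPE/choroid, so their direction is no independent result. Of 8 ligands and restraining signals 7 were higher in RPE/choroid, and Cx3cl1, the neuronal ligand of Cx3cr1, was lower (log2 -1.34, adjusted p = 1.42e-09).

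The authors' deposited table of comparisons, made with another test, has q-values under 0.05 for some members. In the authors' deposited table, Lyz2 (q = 0.0102) and Lgals3 (q = 0.00293) were higher and Olfml3 (q = 0.00293) lower in knockout than in wild-type retina, and Lgals3 (q = 0.0226) and Olfml3 (q = 0.00293) were higher in knock-in than in wild-type retina. The authors' deposited table also has Olfml3 higher and Lgals3 lower in knock-in than in knockout retina (q = 0.00293 for both). For RPE/choroid, the authors' deposited table has Lyz1 (q = 0.00347) and Lyz2 (q = 0.0115) lower in knockout than in wild type, Lyz1 higher (q = 0.00910) and Cd163 lower (q = 0.0277) in knock-in than in knockout, and no member for knock-in against wild type, with 0.297 as the smallest q. Each of these directions was the same in the fragment counts, where edgeR called none of them.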

How the data were processed

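Retina and RPE/choroid of 3 genotypes were measured by paired 100 bp RNA-seq of total RNA after ribosomal depletion, per the labels' protocols. The submitters' processing notes name TopHat, Bowtie2, Cufflinks and the build mm9; no source used here gives versions, annotation or the use of strand in counting. The deposited gene tables hold, per library, expected counts (fragments per gene before scaling) and FPKM, per the file headers. Of the expected counts as deposited, 98.5% in retina and 98.4% in RPE/choroid were whole, and the rest were rounded. FPKM carry the authors' scaling and need not order libraries as the counts do; whether groups overlap was judged in FPKM. The authors' comparison tables hold a p-value and q-value per gene, per the file headers. The tables number libraries 0 to 2 and the labels 1 to 3 with no link, so libraries are named by table number.

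Counts were tested with edgeR 4.0.16 (R 4.3.3; quasi-likelihood, robust, TMM, filterByExpr), fitting the 9 libraries of a tissue together, or all 18 for tissue differences, with Benjamini-Hochberg adjustment over all tested genes at 0.05. The fitted biological coefficients of variation were 0.154 (RPE/choroid) and 0.114 (retina). The models were tested on simulated data, in which only genes with more fragments than many members had in retina were changed. The simulation therefore does not show how often changes in those members would be called. DESeq2 1.42.0, limma 3.58.1, other filters and scalings, the table number as a block, sex, the level of the other tissue and each library left out were tried. Backgrounds are shares of all genes in the main edgeR fit only, and none is given for the other tools or settings. CPM are TMM-scaled over all 18 libraries. Members and lists were chosen with earlier results of these data known. Values in every library are given for the 3 members with the smallest p in each comparison with wild type, for those with the 3 highest and 3 lowest log2 between tissues, and for called genes of other lists; further members were named after their values were seen. Spi1 and Syk are not analysed here. Upstream sequences are RefSeq's, GRCm38.p6, and were matched by symbol.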

Additional observations from a re-analysis of the deposited data

Results flagged for a closer look

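For Lyz2, the lysozyme of macrophages, every knockout retina lay above every wild-type retina and every knockout RPE/choroid library lay below every wild-type one. The knockout effect in RPE/choroid minus that in retina was log2 -1.90 and did not pass edgeR over all 18 libraries (adjusted p = 0.189). Lyz2 belongs to a list drawn up with this opposite shift in view, so the value describes it and is no independent support.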

How the results depend on the processing

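Between genotypes, the number of called members changed only in comparisons of knockout with wild type, and between wild-type tissues it was 33 to 34 when each library was left out. For knockout against wild-type RPE/choroid the count of called members was 3 with DESeq2, 3 with the rod level as a term, and 0 to 4 when each library was left out in turn. For the difference of the knockout effects between tissues it was 2 with DESeq2 and 0 to 1 when each library was left out (1, Lgals3, without wild-type RPE/choroid library 2). No share of all genes is given beside these counts. With the RPE level as a term, the members had a median log2 of -0.069 in knockout retina and -0.31 in knock-in retina, each against wild type, and Trem2 in knockout retina (log2 -0.25) and Ly86 in knock-in retina (log2 -0.27) changed sign; the cause was not tested. The median for knock-in against knockout retina was -0.13 with limma on log2(FPKM + 1). Between wild-type tissues the median was 3.72 to 4.07 when each library was left out. Same-numbered libraries of different genotypes correlated at -0.47 to 0.21 in retina and -0.12 to 0.24 in RPE/choroid, in deviations from their group means. These values gave no ground to pair samples by number, but they cannot exclude a shared day or batch. Pairing of retina with RPE/choroid was not tested. By Xist and Ddx3y, 3 knock-in and 2 knockout retinas were female, while 2 knock-in and 3 knockout RPE/choroid libraries were male. Not every library therefore has a partner of the same sex in the other tissue. With the table number as a replicate block 0 members were called in every genotype comparison and 34 between tissues. Low counts limit the retinal values: 9 of 38 members were too low to test there, and intervals of counting error alone would be wide for those with under 10 fragments.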

Other observations

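Of the 38 genes, 6 are listed with 2 transcripts in the deposited transcript tables. In RPE/choroid, NM_011210 held 95.5% of the FPKM of Ptprc and NM_010187 held 94.5% of that of Fcgr2b, while Itgam (62.3% from NM_008401), Lgals3 (60.4% from NM_001145953), Cd163 (65.7% from NM_053094) and Msr1 (66.4% from NM_031195) were divided more evenly. The shares in retina were 93.5% for Ptprc, 76.4% for Itgam and 64.0% for Lgals3 from the same transcripts.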
